A study of Homo sapiens with 24 samples.

Results

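Hedgehog signaling was examined through 9 genes of its core, which were found by symbol in the 4 deposited tables: the receptor-level genes SMO, PTCH1, HHIP, BOC and GAS1, the transcription factors GLI1, GLI2 and GLI3, and the GLI inhibitor SUFU. They were 9 of the 66657 gene symbols listed across the tables. All 9 were listed for Hs578T, for the KIF20A depletion experiment and for the overexpression experiment. The HCC70 table listed 6 of them and had no row for SMO, HHIP or GLI2.

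Hedgehog ligands bind PTCH1, which otherwise holds SMO inactive. BOC and GAS1 are coreceptors that help PTCH1 receive the ligand, and HHIP is a membrane protein that binds ligand and limits the signal. Active SMO at the primary cilium frees the GLI factors from SUFU. Of these factors, GLI2 is known mainly as an activator and GLI3 mainly as a repressor. GLI1, PTCH1 and HHIP are themselves transcriptional targets of the pathway, so their mRNA is commonly read as a sign of its activity. In breast tumors the pathway has been linked to stem-like cells.

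The data were 24 RNA-Seq libraries labelled as 3 triple-negative breast cancer (TNBC) cell lines. Each of 8 conditions had 3 replicates, described as biological triplicates. BCSCs, breast cancer stem-like cells, were sorted by FACS from wild-type Hs578T and wild-type HCC70 as cells that were CD24-CD44+ and ALDH+, and non-BCSCs were cells lacking both of these phenotypes. MDA-MB-231 cells carried a control sgRNA (sgCtrl) or sgRNA #1 against KIF20A (sg1), a mitotic kinesin. By its labels the sg1 group is a KIF20A knockdown, and the guide number comes from the names of the table columns. In a separate experiment, libraries labelled MDA-MB-231 were from cells with an empty vector (EV) or were labelled as KIF20A overexpression. The latter are called OE-labelled libraries here. Each cell line or experiment was 1 batch and 1 table, so that differences between tables and between batches cannot be told apart, and each comparison was made within a table. Fewer cells of a type and less RNA per cell cannot be told apart in these bulk libraries. Library depth, recovered from the values as whole reads, ranged from 28189500 to 33715701 for Hs578T and from 24681218 to 33559417 for HCC70. For libraries labelled MDA-MB-231 it ranged from 41424338 to 51018667 with sgRNAs and from 15971297 to 22182293 with vectors.

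KIF20A mRNA was checked first. It was 161 ± 10.9 CPM in sgCtrl and 119 ± 27.0 CPM in sg1 (mean ± SD, n = 3 each), with a log2 fold change of -0.45 and an adjusted p of 0.69 by limma. The libraries do not measure protein, and the authors report KIF20A depletion by sgRNAs in MDA-MB-231 by immunoblot. KIF20A mRNA was 101, 143 and 124 CPM in EV and 1348, 269 and 896 CPM in the OE-labelled libraries. A list of 6 genes chosen as markers of MDA-MB-231 summed to 5319 to 6391 CPM in all sgCtrl and sg1 libraries. It summed to 5666 to 6378 CPM in EV, but to 370 to 820 CPM in the OE-labelled libraries, where 6 of 6 were lower. CD44, among them, was 642 ± 135 CPM in EV and 0.557 ± 0.591 CPM in those libraries (n = 3 each). The same list reached 6119 to 6410 TPM over the Hs578T libraries and 1978 to 2329 TPM over those of HCC70. It therefore does not single out MDA-MB-231 among the lines of the series. A list of 6 genes that mark the HEK293 embryonic kidney line summed to at most 0.0476 CPM in EV and to 1729 to 2280 CPM in the OE-labelled libraries, with 6 of 6 higher. IRS4 was at 0 CPM in EV and at 1571 ± 305 CPM there. This second list is not silent in every line of the series either. Over the HCC70 libraries it summed to 152 to 235 TPM, nearly all from CDKN2A, whose group means were 163 and 194 TPM. The labelled overexpression and the change of markers from EV cannot be told apart, and all values from the 3 OE-labelled libraries carry that limit. HCC70 carried the basal keratins and Hs578T did not: a list of 4 basal epithelial genes summed to 4657 to 5158 TPM in HCC70 and to 1.52 to 2.31 TPM in Hs578T.

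Promoter sequences are shown for 3 members on which the results below turn: PTCH1, the receptor and pathway target, SMO, the signal transducer, and GAS1, a coreceptor. RefSeq (GRCh38.p14) gave 13 promoters for 7 members and none for GLI1 or GLI3. Each run is the 250 bases before a transcription start site, 5′ to 3′ on the strand of the gene. The letters of a GLI binding site (GACCACCCA, or TGGGTGGTC on the other strand) and of a GC box (GGGCGG, or CCGCCC on the other strand) were searched on both strands. Capitals mark the GLI letters in PTCH1 and the GC box in SMO, and GAS1 held neither motif.
PTCH1 (chr9:95509267-95509516, minus strand): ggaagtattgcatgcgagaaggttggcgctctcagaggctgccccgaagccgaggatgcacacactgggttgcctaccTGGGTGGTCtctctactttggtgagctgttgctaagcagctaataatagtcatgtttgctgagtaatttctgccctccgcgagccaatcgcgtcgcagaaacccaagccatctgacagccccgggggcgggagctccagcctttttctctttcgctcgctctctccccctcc
SMO (chr7:129188383-129188632, plus strand): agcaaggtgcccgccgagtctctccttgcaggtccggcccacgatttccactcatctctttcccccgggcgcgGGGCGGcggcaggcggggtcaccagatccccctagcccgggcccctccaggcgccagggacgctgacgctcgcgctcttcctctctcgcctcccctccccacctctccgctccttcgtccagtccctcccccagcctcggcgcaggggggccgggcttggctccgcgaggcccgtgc
GAS1 (chr9:86947507-86947756, minus strand): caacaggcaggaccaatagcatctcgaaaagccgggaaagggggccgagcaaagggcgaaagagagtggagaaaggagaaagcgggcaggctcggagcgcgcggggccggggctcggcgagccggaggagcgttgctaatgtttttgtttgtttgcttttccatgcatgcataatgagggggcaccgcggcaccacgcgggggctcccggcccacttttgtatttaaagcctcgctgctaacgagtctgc

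The GLI letters occurred in 1 of the 13 promoters of the members, 1 of the 5 of PTCH1, with their first base at position -172 from the start site, and in 0.199% of the 35116 promoters of that length. The same PTCH1 promoter held 1 GC box, which did not overlap the GLI letters. GC boxes occurred in 7 of the 13 promoters and in 42.6% of all. The runs of PTCH1, SMO and GAS1 held 57.2%, 73.6% and 60.0% G or C and 13, 25 and 21 CpG. A match is a description of letters, and no binding was measured.

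In Hs578T, the question was whether pathway genes differ between BCSCs and non-BCSCs. GAS1 and GLI3 were called lower in BCSCs, and no tested member was called higher. Of 8 members tested, 2 passed the test (limma on log2(TPM + 1), adjusted p under 0.05), both lower. TPM is a read count per transcript length scaled to 1000000. The members' share stands against 7.15% of 13324 genes called in either direction, with 2.9% called higher and 4.26% called lower. The members' median log2 fold change was -0.09, and that of all genes tested -0.01.

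GAS1 was 6.61, 6.91 and 6.81 TPM in non-BCSCs and 4.51, 4.80 and 4.08 in BCSCs. Every BCSC library lay below every non-BCSC library. The log2 fold change was -0.51 (SE 0.07, 95% confidence interval -0.68 to -0.35, adjusted p = 0.0065 by limma). GLI3, the factor that acts mostly as a repressor, was 7.83, 8.13 and 8.37 TPM in non-BCSCs and 5.97, 6.06 and 6.19 in BCSCs. Its groups did not overlap either, and its log2 fold change was -0.37 (SE 0.06, adjusted p = 0.0098 by limma). Without non-BCSC replicate 2 the adjusted p of GLI3 was 0.058, and without BCSC replicate 1 it was 0.052.

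PTCH1 had the lowest TPM of the 9 members in Hs578T. It was 0.667, 0.806 and 0.653 TPM in non-BCSCs and 0.389, 0.396 and 0.419 in BCSCs, a mean ratio of 0.566 with no overlap of the groups. These values rested on 70 to 95 recovered reads in non-BCSCs and 45 to 53 in BCSCs. Its mean was below the minimum of 1 TPM, so it was not in the main test. The exact permutation test of 3 against 3 libraries, two-sided, gave p = 0.1, the smallest it allows. Without the minimum, limma gave an adjusted p of 0.031, and on the recovered reads edgeR gave a log2 fold change of -0.79 with an adjusted p of 0.0037.

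The other members of Hs578T did not pass the test. BOC, a coreceptor, was 12.6, 12.2 and 12.8 TPM in non-BCSCs and 11.3, 11.5 and 11.5 in BCSCs. Its groups did not overlap, but its log2 fold change was -0.12 with an adjusted p of 0.20 by limma. In all, 3 of 8 tested members lay wholly lower in BCSCs and 0 wholly higher, against 17% and 12% of all genes tested, or 29% in either direction. HHIP had the highest TPM of the members, 15.8 to 17.8 TPM in non-BCSCs and 16.5 to 17.1 in BCSCs. Its interval for the log2 fold change was -0.15 to 0.11. SMO was at 12.4 to 14.4 TPM in non-BCSCs and 12.3 to 13.1 in BCSCs, with an interval of -0.21 to 0.10. GLI1, the activator whose transcription follows pathway activity, was 2.30, 2.98 and 2.71 TPM against 2.24, 1.70 and 2.73 TPM in BCSCs. The groups of GLI1 overlapped, and its log2 fold change was -0.19 (95% confidence interval -0.51 to 0.12). GLI2 was 4.61 to 5.22 TPM and 4.90 to 5.68 TPM, and SUFU 3.46 to 3.61 TPM and 3.36 to 3.70 TPM, with overlap in both.

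By mean TPM, a scale per length, the order in Hs578T non-BCSCs was HHIP, SMO, BOC, GLI3, GAS1, GLI2, SUFU, GLI1 and PTCH1. SMO and BOC were the only neighbours in this order whose 3 libraries overlapped.

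Other genes of the pathway, taken from lists of ligands, receptor-level genes, GLI regulators, GLI targets and primary cilium genes, were counted by the same test. Of 49 tested, 1 was higher and 3 were lower in Hs578T BCSCs, a count near the share over all genes (2.9% higher and 4.26% lower), so the genes below are values and not a result about the lists. FOXF1, a forkhead factor and GLI target, had 2.19 ± 0.508 TPM in non-BCSCs and 1.10 ± 0.15 in BCSCs (log2 fold change -0.59, adjusted p = 0.046 by limma). BMP4, a secreted ligand and GLI target, had a log2 fold change of -0.35 (adjusted p = 0.032 by limma). FOXC2, a forkhead factor linked to mesenchymal cells, was higher, at 19.5 ± 3.54 TPM against 13.6 ± 0.713 TPM (log2 fold change 0.48, adjusted p = 0.046 by limma). KIFAP3, an adaptor of the ciliary kinesin, had a log2 fold change of -0.20 (adjusted p = 0.048 by limma). These 4 calls were lost without the minimum on TPM, where adjusted p values were 0.06 to 0.10 (limma). They also rested on single libraries: leaving out 1 library lost the call of FOXF1, BMP4 and KIFAP3 in 5 of 6 cases and of FOXC2 in 4 of 6, with adjusted p values of up to 0.17, 0.11, 0.21 and 0.15 by limma. None of the 10 other receptor-level genes and 11 GLI regulators tested passed. Of the ligand list, HHAT and DISP1, which modify and release the ligands, were tested and did not pass, and no Hedgehog ligand was: IHH and DHH were below the minimum and SHH had no row. Mesenchymal markers moved in both directions. The sum of 5 of them was 13504 to 13710 TPM in non-BCSCs and 11352 to 12433 in BCSCs, and FN1, which carried most of it, was 8091 ± 99.6 TPM and 6522 ± 570 TPM. FN1 and SPARC were called lower, while VIM and CDH2 lay wholly higher in BCSCs without passing (log2 fold changes 0.07 and 0.19, adjusted p = 0.39 and 0.064 by limma), and ZEB1 overlapped. The part of these markers in the results was not tested. ALDH1A3, an aldehyde dehydrogenase that bears on the ALDH sort, was 289 ± 8.35 TPM in non-BCSCs and 706 ± 4.32 in BCSCs.

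**Figure D1:**
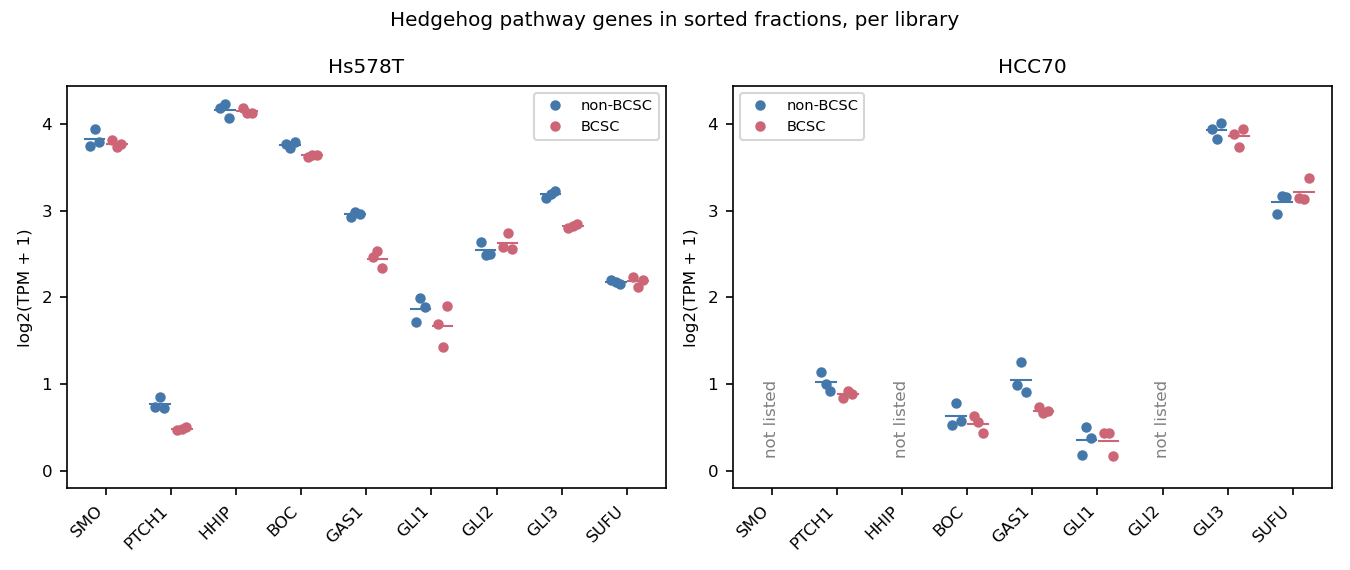
Values of the 9 Hedgehog pathway genes on the log2(TPM + 1) scale in each library of Hs578T (left) and HCC70 (right). Points are libraries, 3 for each group, and horizontal lines are group means. GAS1, GLI3, PTCH1 and BOC lie lower in all 3 Hs578T BCSC libraries than in all 3 non-BCSC libraries; SMO, HHIP and GLI2 were not listed for HCC70.

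HCC70 expressed fewer of the genes. Only GLI3 and SUFU reached a mean of 1 TPM, and 0 of these 2 passed the test, against 2.83% of 13218 genes, with 2.28% called higher and 0.552% lower. GLI3 was 14.4, 13.2 and 15.1 TPM in non-BCSCs and 13.8, 12.3 and 14.4 in BCSCs, with overlapping groups and a log2 fold change of -0.08 (95% confidence interval -0.26 to 0.11, adjusted p = 0.62 by limma). SUFU was 6.78, 8.00 and 7.89 TPM in non-BCSCs and 7.85, 7.81 and 9.37 in BCSCs, with a log2 fold change of 0.13 (95% confidence interval -0.10 to 0.35). At an unadjusted p under 0.05, the count was also 0 of the 2, and edgeR and DESeq2 on the recovered reads called 0 of the 6 listed members, with no adjusted p from DESeq2 for GLI1.

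GAS1 in HCC70 was 0.983, 1.39 and 0.881 TPM in non-BCSCs and 0.667, 0.588 and 0.611 in BCSCs. All BCSC libraries lay lower, as in Hs578T, but at 28 to 44 and 19 to 25 recovered reads. Exact permutation gave p = 0.1, the smallest possible for 3 against 3, and edgeR on recovered reads gave a log2 fold change of -0.82 with an adjusted p of 0.069. PTCH1 was 1.20, 1.00 and 0.900 TPM in non-BCSCs and 0.797, 0.890 and 0.849 in BCSCs. Its groups did not overlap, at a mean ratio of 0.817 (exact permutation p = 0.1, edgeR adjusted p = 0.20). The background of groups that lay wholly lower in BCSCs was 10.1% among tested genes of HCC70, with 20.9% wholly higher and 30.9% in either direction. BOC was 0.361 to 0.729 TPM and GLI1 was 0.126 to 0.419 TPM over the 6 libraries, with overlap of the groups. GLI1 rested on 5 to 17 reads a library.

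Whether the BCSC effect differed between the lines was tested for GLI3 and SUFU in a model of the 12 sorted libraries. The effect on GLI3 was 0.29 higher in HCC70 than in Hs578T on the log2 scale (95% confidence interval 0.08 to 0.50, adjusted p = 0.085 by limma). For SUFU the difference was 0.12 (adjusted p = 0.55 by limma). Neither passed, against 7.11% of 11668 genes. The call of GLI3 in Hs578T and its absence in HCC70 are thus not shown to differ. Without a minimum, the differences of GAS1 and PTCH1 were 0.16 and 0.15, with adjusted p values of 0.46 and 0.29 by limma.

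Of the wider pathway lists in HCC70, 1 of 47 genes tested passed, no more than the 2.83% of all genes, and it is given as a value. SNAI1, a transcription factor of epithelial-mesenchymal transition and a GLI target, was 8.02 ± 0.998 TPM in non-BCSCs and 11.9 ± 0.561 in BCSCs (n = 3 each, log2 fold change 0.52, adjusted p = 0.035 by limma). Without the minimum its adjusted p was 0.077, and leaving out 1 library lost the call in 5 of 6 cases, with an adjusted p of up to 0.14 (limma). The median over the 47 genes was 0.02, equal to that of all genes. A list of 4 immune and endothelial markers summed to 39.3 to 49.8 TPM in non-BCSCs and 60.4 to 65.9 in BCSCs of HCC70. CD68, called higher, carried nearly all of the sum, at 45.4 ± 5.56 TPM and 63.3 ± 3.01 TPM. PTPRC, CD3E and PECAM1 had group means of at most 0.217 TPM. The part of these markers in the values above was not tested.

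In MDA-MB-231 with KIF20A depletion, the comparison of sg1 with sgCtrl asked whether the pathway moves with KIF20A. Here BOC and HHIP were lower in all 3 sg1 libraries, but no member passed the test. Of 6 members tested, 0 were called, against 0% of 12852 genes, with limma at an adjusted p under 0.05. At an unadjusted p under 0.05, 899 genes passed, BOC and HHIP among them, while edgeR called 0 genes and DESeq2 called 16, none of them members. The 6 log2 fold changes were all negative, with a median of -0.08 against 0.00 for all genes, but those of GLI2, GLI3, PTCH1 and SUFU turned positive when 1 library was left out.

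BOC was 3.88, 3.95 and 3.61 CPM in sgCtrl and 2.80, 1.90 and 2.08 CPM in sg1. The log2 fold change was -0.57 (95% confidence interval -0.97 to -0.18, unadjusted p = 0.0084, adjusted p = 0.69, both by limma). CPM is reads per 1000000 without a length term. HHIP, the ligand-binding inhibitor, was 1.58, 1.91 and 1.79 CPM in sgCtrl and 0.523, 0.605 and 1.38 CPM in sg1, on 72 to 93 and 25 to 58 reads, and it reached the minimum mean of 1 CPM only through sgCtrl. Its log2 fold change was -0.61 (95% confidence interval -1.08 to -0.15, adjusted p = 0.69 by limma). Both genes were separated between groups, as 7.3% of all genes tested were in the same direction, 5.73% in the other and 13% in either.

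PTCH1 was 40.0, 45.1 and 45.1 CPM in sgCtrl and 36.9, 61.8 and 28.3 CPM in sg1. The sg1 libraries lay on both sides of the controls, and the interval of the log2 fold change was -0.61 to 0.39. GLI2 was 20.8, 19.0 and 12.6 CPM in sgCtrl and 15.0, 24.0 and 13.0 CPM in sg1, with an interval of -0.55 to 0.49. GLI3 was 20.0 to 27.5 CPM and 21.3 to 26.0 CPM, and SUFU 39.9 to 51.1 CPM and 37.7 to 50.5 CPM. Groups overlapped for these 4 genes.

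GLI1, SMO and GAS1 were at or near 0 in all libraries of the depletion experiment. SMO and GAS1 had 0 reads in 6 of 6 libraries, which allows up to 0.0602 to 0.0716 CPM in each (3 reads per library, counting error only). GLI1 had 12, 0 and 0 reads in sgCtrl and 2, 0 and 0 reads in sg1 (exact permutation p = 1.0). Per kilobase of merged exons, SUFU was the highest member in sgCtrl, at 6.61 CPM per kb, followed by PTCH1 at 2.51, GLI2 at 2.27 and GLI3 at 1.8 CPM per kb. BOC and HHIP were at 0.370 and 0.147 CPM per kb.

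Of the wider pathway lists, 0 of 47 genes passed in the depletion experiment. Primary cilium genes had positive log2 fold changes for 17 of 19 tested, with a median of 0.11 against 0.00 for all genes, but 0 of them were called. SHH, a ligand, had 4.39 ± 1.28 CPM with sgCtrl and 4.22 ± 0.779 CPM with sg1.

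**Figure D2:**
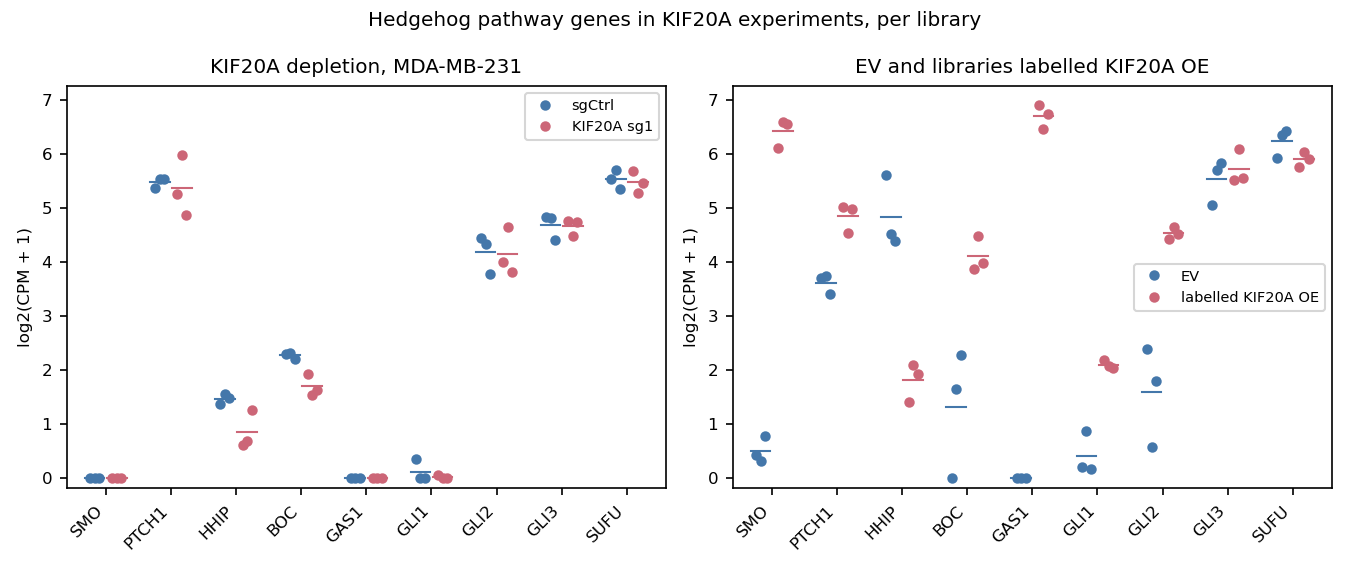
Values of the 9 genes on the log2(CPM + 1) scale in the KIF20A depletion experiment in MDA-MB-231 (left) and in EV and OE-labelled libraries (right). The OE-labelled libraries carry the label MDA-MB-231 but lack most of its marker expression. Points are libraries, 3 for each group, and lines are group means. SMO and GAS1 are at 0 in all 6 libraries on the left, and on the right they are near or at 0 in EV and at 67.8 to 119 CPM in the OE-labelled libraries.

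The OE-labelled libraries differed from EV in most of the pathway. SMO, GAS1, BOC, GLI1, GLI2 and PTCH1 were higher and HHIP was lower. Of 9 members tested, 7 were called, against 69.7% of 15265 genes. The share called higher was 6 of 9, against 46.2%, and the share called lower was 1 of 9, against 23.4%. The same 7 had groups that did not overlap, against 74.1% of genes, with 48.9% wholly higher and 25.2% wholly lower. SMO, GAS1 and GLI1 reached the minimum mean of 1 CPM only through the OE-labelled libraries, where they are high, so they had to differ and these counts support nothing about the members in particular. Over all genes the median log2 fold change was 0.37, and it became 0.03 when libraries were rescaled by the median of ratios, which also moved the calls from 7055 higher and 3579 lower to 5135 higher and 5013 lower. Changes relative to the median of all genes are therefore given too.

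SMO, which transmits the signal across the membrane, was 0.333, 0.242 and 0.706 CPM in EV and 67.8, 95.6 and 93.1 CPM in the OE-labelled libraries. The mean ratio was 200, on 5 to 12 reads in EV. The log2 fold change on the log2(CPM + 1) scale was 5.92 (SE 0.22, adjusted p = 2.0e-07 by limma), 5.55 above the median of all genes. SMO reached the minimum mean of 1 CPM only through the OE-labelled libraries, so this p is no support. GAS1 had 0 reads in all 3 EV libraries and was 119, 86.8 and 105 CPM in the OE-labelled libraries. It was at least 588-fold higher, taking the floor of 3 reads in the EV library with the highest floor, 0.176 CPM. The same floor in the other EV libraries was 0.143 and 0.145 CPM. For both genes the 2 groups were far apart.

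BOC was 0, 2.13 and 3.82 CPM in EV and 13.6, 21.2 and 14.7 CPM in the OE-labelled libraries. The EV libraries ranged from 0 to 3.82 CPM, and none reached the level of the other group. The log2 fold change was 2.80 (SE 0.52, adjusted p = 0.0015 by limma), 2.43 above the median of all genes. DESeq2 on recovered reads gave an adjusted p of 0.12 and edgeR one of 0.033.

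The GLI activators were also higher. GLI2 was 4.24, 0.483 and 2.47 CPM in EV and 20.5, 24.1 and 21.8 CPM in the OE-labelled libraries, with a log2 fold change of 2.95 (SE 0.41, adjusted p = 3.2e-04 by limma). GLI1 was 0.143, 0.822 and 0.118 CPM in EV and 3.51, 3.20 and 3.11 CPM in the others, on 2 to 17 and 56 to 71 reads. Its mean ratio was 9.07, or 25.1 without EV replicate 2, and its log2 fold change 1.69 (SE 0.23, adjusted p = 2.8e-04 by limma). GLI1, too, reached the minimum mean of 1 CPM only through the OE-labelled libraries, so its p is no support. PTCH1 was 11.9, 12.3 and 9.58 CPM in EV and 31.2, 22.1 and 30.5 CPM in the others. The log2 fold change of PTCH1 was 1.23 (SE 0.19, adjusted p = 5.8e-04 by limma), 0.86 above the median of all genes.

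HHIP went the other way. It was 47.4, 21.8 and 19.9 CPM in EV and 1.63, 3.25 and 2.78 CPM in the OE-labelled libraries, a ratio of 11.6 between the group means. The log2 fold change was -3.03 (SE 0.35, adjusted p = 9.9e-05 by limma). Of the 3 members that are also targets of the pathway, GLI1 and PTCH1 were thus higher and HHIP lower.

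GLI3 and SUFU did not pass. GLI3 was 32.0, 51.1 and 56.0 CPM in EV and 44.4, 67.1 and 46.1 CPM in the others, with a log2 fold change of 0.19 (adjusted p = 0.50 by limma), which became -0.17 under the median of ratios. SUFU was 59.7, 80.6 and 85.1 CPM in EV and 53.0, 64.1 and 58.9 CPM in the others, with overlap of the groups. Its log2 fold change was -0.34 (adjusted p = 0.091 by limma), and under the median of ratios it was -0.70 with an adjusted p of 0.0032. Without EV replicate 1 it was -0.49 with an adjusted p of 0.016.

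**Figure D3:**
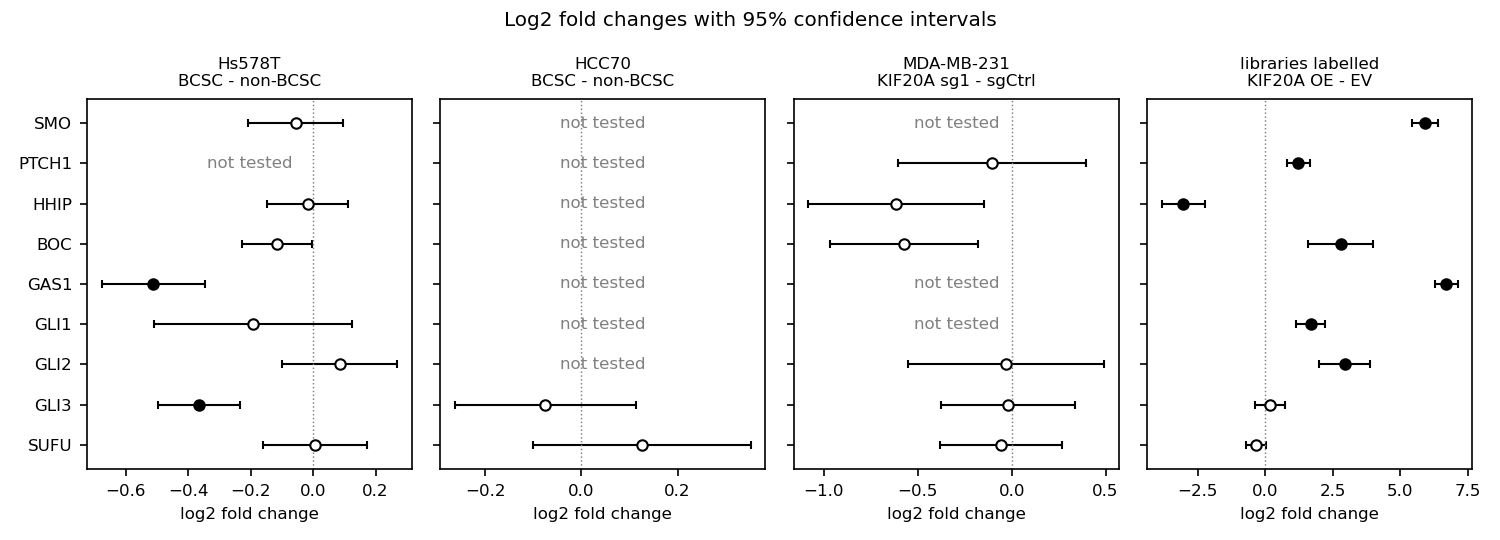
Log2 fold change (x axis, on the log2(value + 1) scale) of each member in the 4 comparisons, from limma, with 95% confidence intervals. Filled points passed an adjusted p under 0.05, open points did not, and the x scale differs between panels. GAS1 and GLI3 are called in Hs578T, no member is called in HCC70 or under KIF20A depletion, and 7 are called in the OE-labelled libraries. Of these 7, SMO, GAS1 and GLI1 reached the minimum mean only through the OE-labelled libraries.

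Per kilobase of merged exons, the order of levels in EV was SUFU at 10.9 CPM per kb, GLI3 at 3.36, HHIP at 2.49 and PTCH1 at 0.654, with the other members under 0.32 CPM per kb. Among the OE-labelled libraries, GAS1 led at 33.1 CPM per kb, then SMO at 18.0, SUFU at 8.53, GLI3 at 3.8 and GLI2 at 2.88 CPM per kb. HHIP was lowest there, at 0.214 CPM per kb.

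In the wider lists, many genes were called in the OE-labelled libraries, as over all genes. Of 56 genes tested, 29 were called higher and 9 lower, against 46.2% and 23.4% of all genes, which is also the background of each list below. Among the called genes, SCUBE1 and DHH of the ligand list, LRP2 and 5 of the GLI targets reached the minimum mean only through the group where they are high, so these counts are no support. Among ligand genes, SCUBE1, which helps release Hedgehog ligand, was 0.0392 ± 0.0679 CPM in EV and 6.72 ± 0.680 CPM in the other group. DHH, a ligand, was lower, with a log2 fold change of -0.82 (adjusted p = 0.046 by limma), which was lost when any 1 of the OE-labelled libraries was left out. Among other receptor-level genes 5 of 11 were called higher and 2 lower. LRP2, an endocytic receptor, had a log2 fold change of 2.58, and the arrestins ARRB2 and ARRB1, which take part in SMO trafficking, had 2.39 and -1.37.

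Among GLI regulators, 7 of 11 were higher and 2 lower. KIF7, the ciliary kinesin that controls GLI processing, was 17.3 ± 4.20 CPM in EV and 105 ± 7.74 CPM in the OE-labelled libraries (log2 fold change 2.55). ULK3 and DYRK2, kinases that act on GLI factors, had log2 fold changes of 2.36 and 1.43. Of 11 GLI targets, 7 were higher and 2 lower, and 5 of the 7 (FOXF1, FOXL1, NKX2-2, FOXC2 and HSD11B2) were at 0 to 0.252 CPM in EV. The cyclins went in opposite directions: CCND1 was 1127 ± 254 CPM in EV and 38.3 ± 20.4 CPM in the other group (log2 fold change -4.94), and CCND2 was 1.70 ± 2.04 CPM and 51.3 ± 4.49 CPM (log2 fold change 4.52). JAG2, a Notch ligand, had a log2 fold change of 4.36. Of 19 primary cilium genes, 9 were higher and 2 lower, against 46.2% and 23.4% of all genes. Their median was 0.37, equal to that of all genes. BBS4, DYNC2LI1 and RPGRIP1L had log2 fold changes of 2.04, 1.29 and 1.29.

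**Figure D4:**
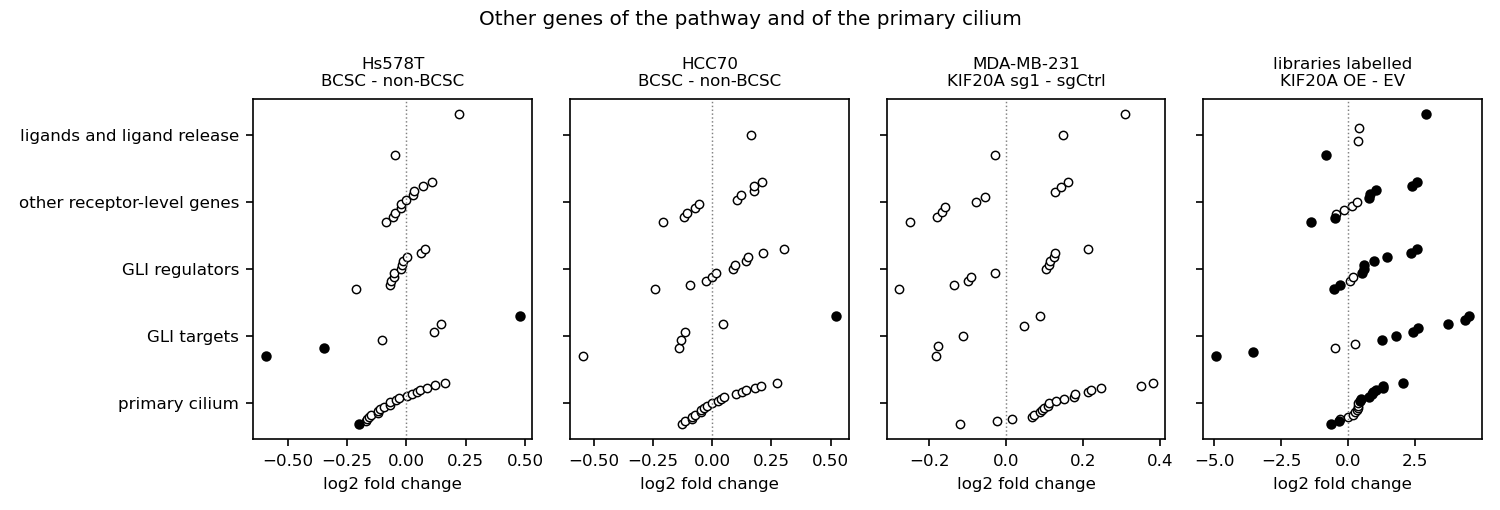
Log2 fold change (x axis, on the log2(value + 1) scale) of the other pathway and primary cilium genes that were tested, by list and comparison. Each point is a gene, filled where the adjusted p was under 0.05 by limma, the vertical spread within a list follows the rank of the gene, and the x scale differs between panels. The filled points number 4 in Hs578T, 1 in HCC70, 0 under KIF20A depletion and 38 in the OE-labelled libraries.

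Both MDA-MB-231 control groups are given side by side, without a test, as their tables were made and normalized separately. HHIP was 1.58 to 1.91 CPM in sgCtrl and 19.9 to 47.4 CPM in EV. PTCH1 was 40.0 to 45.1 CPM in sgCtrl and 9.58 to 12.3 CPM in EV, and GLI2 was 12.6 to 20.8 CPM and 0.483 to 4.24 CPM.

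GLI3 and SUFU were the members with a mean of at least 1 in all 4 tables. Over the 24 libraries, on log2(value + 1) centred within each table, the 3 of 9286 genes with the highest Pearson correlation to GLI3 were HYAL3 (0.809), SSBP3 (0.800) and TMEM140 (0.730). Those for SUFU were PLCD1 (0.830), ZDHHC14 (0.816) and SLC1A1 (0.790). Over the 18 libraries outside the overexpression experiment these correlations were 0.524 to 0.743. The libraries of a table share a batch, and the values are a description.

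By GENCODE 44 on GRCh38, GAS1 is a gene of 1 exon (chr9:86944362-86947506, minus strand) with no overlap to exons of other genes, and the exons of SMO (chr7:129188633-129213545) and PTCH1 (chr9:95442980-95517057, minus strand) overlap those of 1 opposite-strand gene each, by 129 and 711 bases. HHIP (chr4:144646156-144745271) shares 813 exonic bases with HHIP-AS1 and 180 with a further gene on the opposite strand, and BOC (chr3:113211003-113287459) shares 530 with CFAP44 and 270 with a further gene. GLI1 shares 5 bases with ARHGAP9, and GLI2, GLI3 and SUFU share none. The libraries were stranded, but the strand setting of the counting was not given in the sources used here, so reads of these pairs may not be told apart.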

How the data were processed

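Poly-A RNA of 24 samples was sequenced by the authors with stranded, paired-end libraries and aligned to GRCh38. HISAT2 2.0.5 and featureCounts 1.5.0-p3 are named in the submitters' processing notes, and the annotation and the strand setting of the counting are not given in the sources used here. For Hs578T and HCC70 the deposited values are TPM, which the authors scaled by transcript length to 1000000 per library. The deposited depletion table, named CPM by the authors, is a signal of reads divided by 1 factor per library. The deposited overexpression table holds CPM without a length term. In all, 0 sample columns were left unused.

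Whole reads were recovered from the values within a tolerance of 0.005 reads for 100% of genes above 0. TPM reads can be too low by a common divisor, as seen on simulated data. A gene whose mean over 6 samples reached 1 was tested by limma 3.58.1 with a trend (R 4.3.3) on log2(value + 1), two-sided, with Benjamini-Hochberg adjustment over all genes tested in a comparison. The log2(value + 1) scale understates changes of low genes. Members below the minimum were compared by exact permutation of 3 against 3 samples, whose smallest p is 0.1. The design would have used edgeR had the tables held counts. Cell line is also the batch in the model of 12 sorted samples. The fits and the recovery were tested on simulated data with known changes.

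Alternatives were a pseudocount of 0.1, no minimum, a minimum of 10, the median of ratios, recovered reads in edgeR 4.0.16 and in DESeq2 1.42.0, a replicate block and each library left out. All 9 members and KIF20A are named, and from each wider list at most 3 called genes with the largest change. The members and lists were chosen with earlier results of these data known. Marker genes are named to check labels, and SHH, IHH, HHAT, DISP1, FOXL1, NKX2-2 and HSD11B2 were named after their values were seen. Motifs were searched in RefSeq promoters. Python 3.11.15, numpy 2.4.6, pandas 2.3.3 and matplotlib 3.10.9 were used. P-values measure the spread between the deposited replicates.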

Additional observations from a re-analysis of the deposited data

Results flagged for a closer look

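Among the members, KIF20A and the wider pathway lists, the BCSC effect differed between HCC70 and Hs578T for 2 genes by a test of the difference itself. Of the markers named above, ALDH1A3 and CD68 also passed that test. Their effects in HCC70 minus those in Hs578T were -1.12 (adjusted p = 2.1e-05 by limma) and 0.56 (adjusted p = 0.024 by limma) on the log2 scale. TTBK2, a kinase that starts the growth of the primary cilium, was 9.85 ± 0.339 TPM in HCC70 non-BCSCs and 11.5 ± 0.330 TPM in HCC70 BCSCs, and 11.9 ± 0.609 TPM and 10.6 ± 0.511 TPM in Hs578T (n = 3 each). The difference of the effects was 0.355 on the log2 scale (SE 0.08, adjusted p = 0.027 by limma), but neither line's own effect passed. It was the 1 called of 43 wider pathway and cilium genes tested for this difference, against 7.11% of 11668 genes. Its call was lost with the replicate block (adjusted p = 0.079 by limma) and in 5 of 12 fits that left out 1 library (up to 0.082). KIF20A was higher in BCSCs of both lines, by 0.80 in HCC70 and 0.45 in Hs578T, and the difference was 0.352 (SE 0.08, adjusted p = 0.029 by limma). The KIF20A call was lost with the replicate block (adjusted p = 0.072 by limma) and in 8 of 12 fits that left out 1 library (0.051 to 0.077). Cell line and batch cannot be told apart in these differences.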

How the results depend on the processing

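Leaving out 1 library gave 1 to 2 called members for Hs578T, 7 to 8 for the OE-labelled libraries, and 0 for HCC70, for KIF20A depletion and for the difference between lines. The count of 1 came without Hs578T non-BCSC replicate 2 or BCSC replicate 1. A minimum of 10 TPM left 3 members of Hs578T in the test, without GAS1 and GLI3, and 0 called. No other setting moved the number of called members by over 1.5 times. Signs reversed only for members that were not called. HHIP in Hs578T became 0.008 under the median of ratios, 0.008 under DESeq2 and 0.005 under edgeR, and with 1 library left out it ranged from -0.063 to 0.020, SMO from -0.095 to 0.004 and SUFU from -0.017 to 0.036. In the depletion experiment GLI2 became 0.01 under edgeR, and with 1 library left out GLI2 ranged from -0.277 to 0.140, GLI3 from -0.162 to 0.069, PTCH1 from -0.411 to 0.139 and SUFU from -0.163 to 0.044. GLI3 in the OE-labelled libraries became -0.17 under the median of ratios and -0.18 under edgeR and DESeq2, and ranged from -0.051 to 0.343 with 1 library left out. SUFU there passed under the median of ratios, edgeR and DESeq2, and BOC was lost under DESeq2. The cause of these was not tested.

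Same-numbered samples did not pair: the correlation of their deviations was over 0.1 for 1 such pair, of HCC70, and ranged from -0.161 to 0.185. Some differently numbered samples went higher: sgCtrl 1, 2 and 3 reached 0.262, 0.276 and 0.254 with sg1 3, 1 and 2. In the other comparisons differently numbered samples reached at most 0.136. The replicate block did not use such pairs. With the replicate block, 2 members were called in Hs578T, 0 in HCC70, 0 in the depletion experiment, 7 in the OE-labelled libraries and 0 for the difference between lines. The block lost the calls of FOXF1 (adjusted p = 0.076), BMP4 (0.073), KIFAP3 (0.12), SNAI1 (0.084), TTBK2 (0.079) and the KIF20A difference (0.072), all by limma.

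Over all genes, calls in Hs578T numbered 953 and were 669 with the block, 1193 under the median of ratios, 1806 by edgeR and 1466 by DESeq2, with 386 calls higher and 567 lower, against 620 and 573 under the median of ratios and 781 and 685 by DESeq2. In HCC70 374 calls became 128 with the block, 178 without a minimum, 233 under the median of ratios, 747 by edgeR and 1141 by DESeq2, with 80.5% higher against 71.7%, 58.4% and 53.6% in the last 3. For the difference between lines 830 calls became 302 with the block, and 79.0% of calls were higher against 63.2% under the median of ratios. In the depletion experiment 144 genes were called without sgCtrl replicate 3, and no member was among them. The overexpression table was the shallowest, and GLI1 in HCC70 and GLI1 in EV rest on under 20 reads a library.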
